A study of Mus musculus with 16 samples.

Results

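Genes of the mitochondrial ribosome and of the protein import machinery of the mitochondrial membranes were followed in activated mouse CD4+ T cells with and without the transcription factor STAT3. They were taken by symbol: every gene whose single platform symbol began with Mrpl or Mrps (named for the large and small mitochondrial ribosome subunits), Timm (inner membrane and intermembrane space import) or Tomm (outer membrane import), each followed by a digit. This rule found 99 of the 18193 genes with a named probe set, made up of 47 Mrpl, 29 Mrps, 15 Timm and 8 Tomm genes. Where a gene had several probe sets, as 55 of the 99 did, the one brightest on average across the 16 arrays stood for it. A level of log2 6 on at least 2 arrays was reached by 97, namely all 47 Mrpl, all 29 Mrps, 14 Timm and 7 Tomm genes, among 13007 genes that reached it. Timm8a2, at 3.00 to 3.46, and Tomm20l, at 4.25 to 4.91, stayed under that level on every array and were not tested.

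The series compared 2 genotypes in 4 culture conditions with 2 arrays a group. STAT3-deficient cells carried floxed STAT3 and the CD4 Cre transgene, which removes floxed sequence in cells that have expressed CD4, and the cells labelled WT carried the floxed allele without Cre. In both genotypes sorted naive CD4+ cells were activated through CD3 and CD28 for 3 days, with IL-6 and TGFb together, with IL-6 alone, with TGFb alone, or in medium without added cytokine. The labels give IL-6 at 10 ug/ml and TGFb at 2.5 ug/ml, and do not give the age of the mice. Nothing in the labels says whether the 2 arrays of a group came from separate mice, though their sex patterns, given below, differ. The p-values measure the spread between these arrays.

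The mitochondrial ribosome translates the few proteins encoded by mitochondrial DNA, which are core subunits of the respiratory chain, while its own proteins are encoded in the nucleus. These and nearly all other mitochondrial proteins are made in the cytosol and enter through the TOM complex of the outer membrane. From there the TIM23 complex handles precursors with a presequence, and small TIM chaperones of the intermembrane space carry hydrophobic precursors towards the TIM22 complex. In T cells these genes are known for their induction after activation, when cells grow and build mitochondria.

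Promoters of 3 genes are shown because their genes were among those that differed between the genotypes under IL-6 and because each holds a motif of a factor known for nuclear genes of mitochondrial proteins. The windows run from 250 bases before to 50 bases from the gene start, are credited to RefSeq (GRCm38.p6) and are printed on the gene's strand, with motif matches in capitals. Timm10 lies at chr2:84826771-84827070 on the plus strand, Timm13 at chr10:80900920-80901219 on the minus strand and Mrpl42 at chr10:95501900-95502199 on the minus strand.
Timm10: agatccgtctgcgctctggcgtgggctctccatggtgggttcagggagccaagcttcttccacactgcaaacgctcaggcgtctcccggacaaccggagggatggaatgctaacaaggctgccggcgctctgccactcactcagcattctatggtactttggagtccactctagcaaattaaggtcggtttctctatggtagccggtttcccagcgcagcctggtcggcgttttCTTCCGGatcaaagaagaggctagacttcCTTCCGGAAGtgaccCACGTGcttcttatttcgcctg
Timm13: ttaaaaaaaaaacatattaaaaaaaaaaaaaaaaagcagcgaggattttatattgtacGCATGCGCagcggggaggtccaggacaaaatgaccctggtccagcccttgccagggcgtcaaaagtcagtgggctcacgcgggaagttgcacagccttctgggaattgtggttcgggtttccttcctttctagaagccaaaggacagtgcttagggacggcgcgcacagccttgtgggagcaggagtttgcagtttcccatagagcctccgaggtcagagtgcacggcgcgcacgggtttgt
Mrpl42: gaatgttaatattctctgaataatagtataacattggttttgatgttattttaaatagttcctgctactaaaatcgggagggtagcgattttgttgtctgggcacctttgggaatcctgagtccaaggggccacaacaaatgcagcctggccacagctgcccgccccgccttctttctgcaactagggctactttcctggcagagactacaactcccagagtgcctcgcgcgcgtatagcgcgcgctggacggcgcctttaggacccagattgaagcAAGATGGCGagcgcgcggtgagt
Counted from the first base of the window, Timm10 had the ETS letters bound by GABP starting at 235, 264 and 267, the last pair overlapping on opposite strands, and an E-box at 279. Timm13 had the NRF1 core letters at 59, and Mrpl42 the YY1 letters at 278.

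Of the 99 genes, 87 had a promoter in the RefSeq table, and each motif was searched on both strands in these and in 17492 promoters of protein-coding genes. The ETS letters CCGGAAG stood in 33 of the 87 (37.9%), against 11.9% of all promoters. The NRF1 core GCATGCGC stood in 9 (10.3%, against 3.61%), the YY1 letters AAGATGGCG in 9 (10.3%, against 1.94%) and the E-box CACGTG, a motif of MYC among other factors, in 10 (11.5%, against 7.90%). Of the 9 genes called under IL-6 below, 8 had a promoter in the table and each motif stood in 1 of them. A match describes the letters of the window only.

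Facts about the arrays come before the results that rest on them. The T cell markers on the array were all present, at a median of 11.74 over the 9 matched genes. Among markers of other cells, both CD8 markers stayed under log2 8 (highest 7.43), as did 9 of 10 myeloid, 6 of 7 B cell, 5 of 6 dendritic and 2 of 4 NK cell markers, with Ighm up to 11.94, H2-Ab1 up to 11.32 and Klrd1 up to 12.85. The log2 of the summed T cell markers ranged over 14.96 to 15.46 on STAT3-deficient arrays and 14.83 to 15.29 on WT arrays. For B cell markers it was 10.80 to 12.09 on STAT3-deficient arrays and 10.07 to 11.29 on WT arrays, and for NK cell markers 7.64 to 10.38 on STAT3-deficient arrays and 7.63 to 12.87 on WT arrays, and their part in the results was not tested. Stat3 itself lay at 8.40 to 10.46 (median 8.87) on the 8 STAT3-deficient arrays and at 10.22 to 12.18 (median 11.80) on the 8 WT arrays. The highest STAT3-deficient value, on replicate 2 under TGFb, lay above the lowest WT value, on replicate 1 in medium. Stat3 was lower in STAT3-deficient cells by 2.60 (SE 0.29) over the 4 conditions, with a limma adjusted p of 0.00330. Replicate 1 arrays had Xist at 11.91 to 13.21 and Eif2s3y at 3.81 to 4.52. Replicate 2 arrays had Xist at 6.64 to 7.60 and Eif2s3y at 9.84 to 10.98, so the replicate number also separates a female from a male pattern. The 2 arrays of a group thus came from different mice or pools, and the spread between them includes this difference. Same-numbered arrays deviated from their group means together in all 28 pairs (correlation 0.11 to 0.86, median 0.33), so values with the replicate number as a block are given where they change a call.

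The STAT3-deficient replicate 1 array labelled TGFb alone had Il17a at 9.55 and Rora at 10.35. The other arrays labelled TGFb alone had Il17a at 6.07 to 6.39, and both STAT3-deficient arrays labelled IL-6 with TGFb had it at 6.29 and 6.51. Across genes the difference between those labels correlated at -0.10 between the replicates of STAT3-deficient cells and at 0.66 between those of WT cells. The library labelled TGFb of replicate 1 in STAT3-deficient cells is therefore doubted. Its partner labelled IL-6 with TGFb had Rora at 8.295, beside 8.468 in replicate 2. The correlation uses both libraries and cannot tell which of them is odd. The partner is doubted as well only because their labels may have been exchanged, which was not tested. The main counts and medians that use these libraries are also given without both. The WT library labelled TGFb of replicate 1 had Foxp3 at 4.81, where that of replicate 2 had 9.99. Arrays in medium had Foxp3 at 4.39 to 5.25, so this library showed no rise of Foxp3 with TGFb. It was kept in the main fit and is not counted among the doubted arrays.

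The clearest difference between the genotypes stood under IL-6 alone, where STAT3-deficient cells had more mRNA of most of these genes than WT cells. Of the 97 tested, 9 were called higher in STAT3-deficient cells and 0 lower at a limma adjusted p under 0.05, where 0.561% of all 13007 genes were called higher and 2.73% lower. The median change of the 97 was 0.66 on the log2 scale, with 83 positive, beside a median of -0.03 over all genes tested, of which 47.8% were positive. Both STAT3-deficient arrays lay above both WT arrays for 54 of the 97, a pattern that 20% of all genes had. In bulk RNA, fewer cells with a transcript and less of it per cell cannot be told apart.

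The 9 genes were 6 Mrpl and 3 Timm genes. Timm10, a small TIM chaperone of the intermembrane space that works with Timm9, read 10.97 and 11.16 in STAT3-deficient cells under IL-6, against 8.83 and 9.25 in WT cells. The groups did not overlap, and the change was 2.02 (SE 0.36, 4.07-fold, limma adjusted p 0.0195). Mrpl13, a large subunit protein, read 10.99 and 10.95 in STAT3-deficient cells, against 9.36 and 9.85 in WT cells. Its change was 1.37 (SE 0.22, 2.58-fold, limma adjusted p 0.0155), with a gap between the groups wider than the spread within either.

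Timm13, the small TIM chaperone that pairs with Timm8 proteins, read 11.67 and 11.98 in STAT3-deficient cells, against 9.91 and 10.99 in WT cells. The WT arrays were far apart, and the change of 1.38 (SE 0.33) passed narrowly, with a limma adjusted p of 0.0480. Mrpl42, another large subunit protein, read 11.47 and 11.65 in STAT3-deficient cells, against 9.88 and 10.55 in WT cells (change 1.34, SE 0.25, limma adjusted p 0.0234). Mrpl55 read 9.39 and 9.85 in STAT3-deficient cells, against 8.09 and 8.73 in WT cells (change 1.21, SE 0.27, limma adjusted p 0.0338). In each of these the lowest array was WT replicate 1 under IL-6.

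Mrpl12, a stalk protein of the large subunit that is also known to bind the mitochondrial RNA polymerase, read 11.32 and 11.66 in STAT3-deficient cells, against 10.42 and 10.29 in WT cells. Its WT arrays lay close together, and the change was 1.13 (SE 0.24, limma adjusted p 0.0304). A further 3 were called and are named to complete the count, though the naming rule stopped at the largest changes. Mrpl40 changed by 1.13 (SE 0.21, limma adjusted p 0.0224), Timm17a, a subunit of the TIM23 channel, by 1.09 (SE 0.21, limma adjusted p 0.0256), and Mrpl11, a protein at the base of the stalk, by 0.83 (SE 0.20, limma adjusted p 0.0465). Further probe sets existed for 3 of the 9, Mrpl11, Mrpl13 and Mrpl42, and all of them had a positive difference, with dim probe sets of Mrpl11, Mrpl13 and Mrpl42 near 0 (0.07, 0.03 and 0.20).

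**Figure D1:**
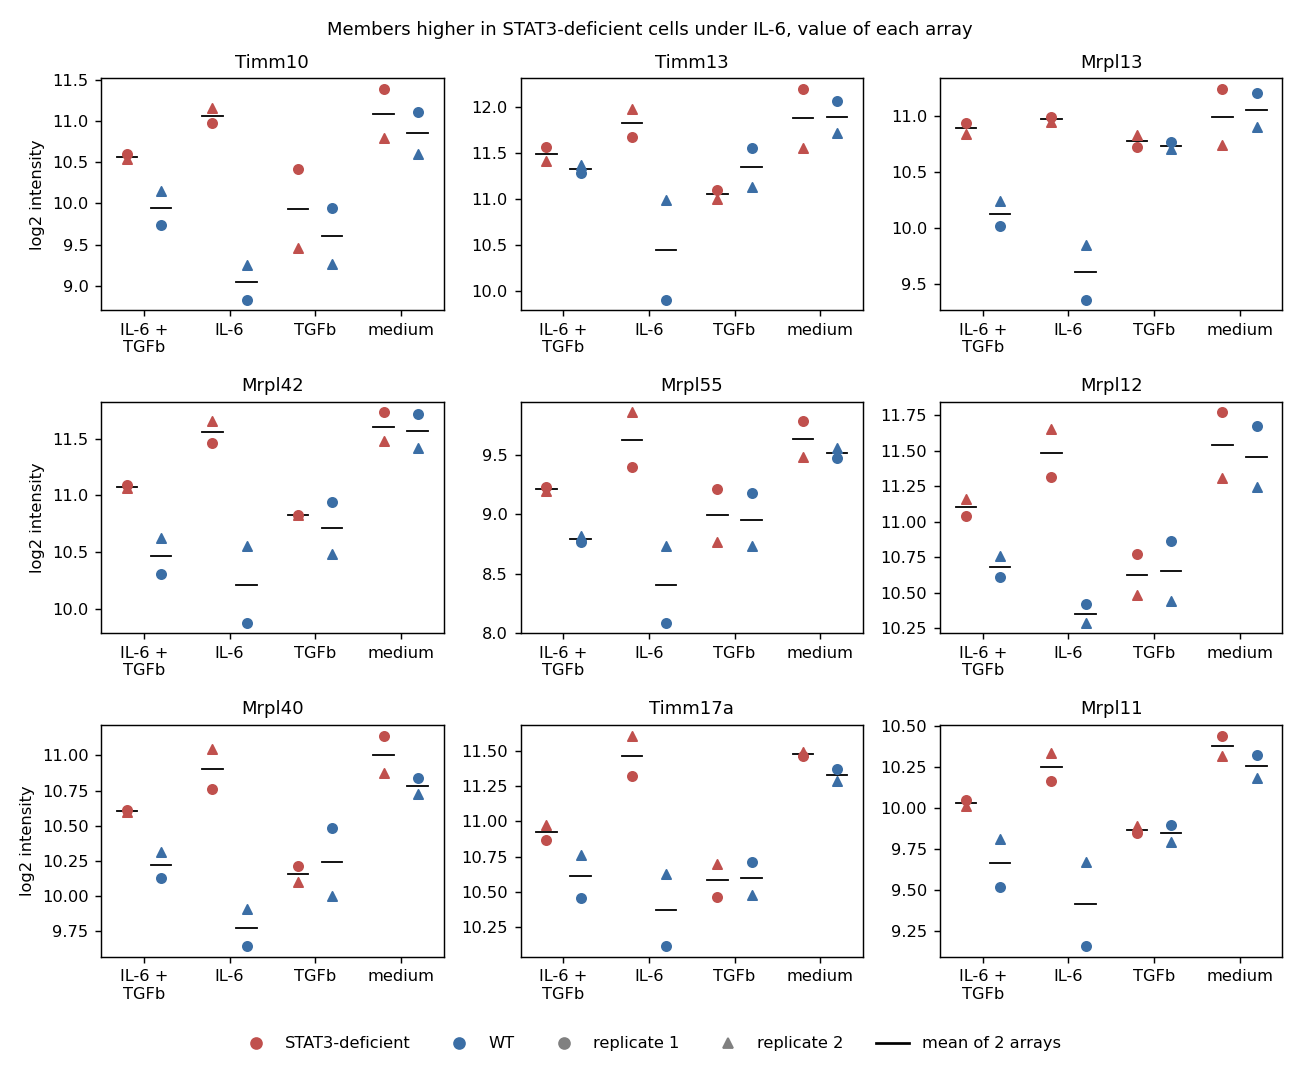
Log2 intensity (y axis) of the 9 called genes on all 16 arrays by culture condition (x axis), STAT3-deficient in red left of WT in blue, circles for replicate 1, triangles for replicate 2 and a line for the mean of 2 arrays. Under IL-6 both STAT3-deficient arrays lie above both WT arrays in every panel, Timm10 showing the largest difference of group means at 2.02.

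By symbol class, the median difference under IL-6 was similar for the Mrpl, Mrps and Timm genes, and near 0 for the Tomm genes. The classes follow the symbols and were not checked against the place of each protein. The median change was 0.63 over the 47 Mrpl genes (42 positive, 6 called), 0.77 over the 29 Mrps genes (27 positive, 0 called) and 0.61 over the 14 Timm genes (11 positive, 3 called). For the 7 Tomm genes the median was -0.02, with 3 positive and 0 called. At an unadjusted p under 0.05, 26 Mrpl, 16 Mrps, 7 Timm and 1 Tomm genes were higher, and 1 Mrpl gene lower, beside 7.42% of all genes higher and 14.3% lower. The lower one was Mrpl9, with a change of -0.73 and a limma adjusted p of 0.142. The difference between these classes was not tested.

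The count under IL-6 depended strongly on single arrays. Without either STAT3-deficient array under IL-6, or without WT replicate 1 under IL-6, 0 of the 97 were called, and the medians were 0.85 without STAT3-deficient replicate 1, 0.42 without STAT3-deficient replicate 2 and 0.37 without WT replicate 1. Without WT replicate 2 the count was 33 and the median 0.92, with 2.4% of all genes called higher. Leaving out either WT array with IL-6 and TGFb, which enters only the estimate of the spread, gave 5, and leaving out both doubted arrays gave 7 of the 9. WT replicate 1 under IL-6 had the lowest value of all 16 arrays for 56 of the 97 (57.7%), a position it held for 10.9% of all genes. Within replicate 1 the median difference between STAT3-deficient and WT cells was 0.67 with 75 of 97 positive, and within replicate 2 it was 0.58 with 86 of 97 positive. With the replicate number as a block, 28 were called higher, among them all 9, beside 2.38% of all genes. They added 9 Mrpl, 8 Mrps and 2 Timm genes, such as Mrpl20 (1.40), Mrps28 (1.18), Mrps25 (1.08) and Timm9 (1.05).

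A sign of RNA quality moved with these values. On the Actb control probe sets, the 5' signal minus the 3' signal was -0.50 to -0.11 on replicate 1 arrays and -1.71 to -0.88 on replicate 2 arrays. Under IL-6 it was -0.27 and -1.71 in STAT3-deficient cells, against -0.11 and -1.0 in WT cells, and the array with the highest value, WT replicate 1 under IL-6, had the lowest mean of the 97 genes, 9.55. STAT3-deficient replicate 2 under IL-6, with the lowest Actb value, had a mean of 10.62. A lower value means relatively less 5' signal. On the Gapdh control probe sets the highest such difference, 0.10, was on WT replicate 1 with IL-6 and TGFb. Under IL-6 the Gapdh difference was 0.08 and -0.61 in STAT3-deficient cells, against 0.03 and -0.23 in WT cells. With the replicate block and this Actb difference as a covariate the median change was 0.48, 81 of 97 were positive, and 2 were called, beside 0.354% of all genes higher. These were Timm10 (1.82, limma adjusted p 0.0495) and Mrpl13 (1.29, limma adjusted p 0.0449).

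**Figure D2:**
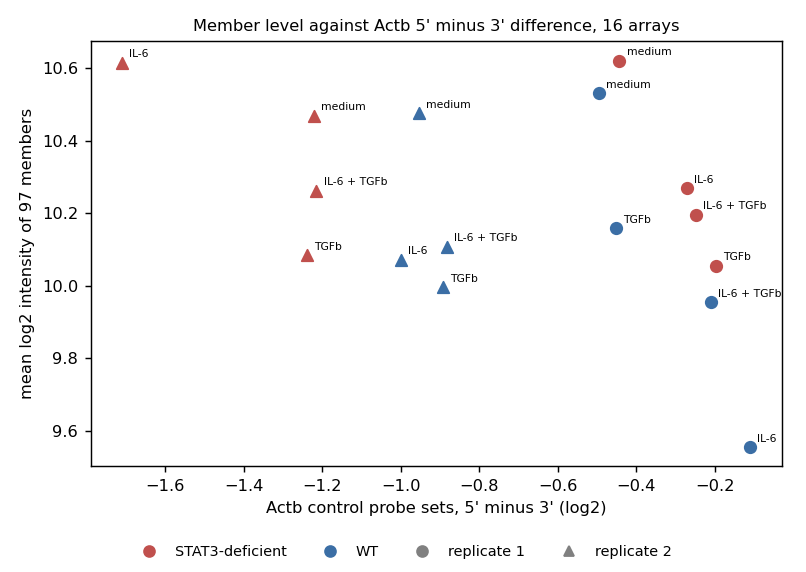
Mean log2 intensity of the 97 genes (y axis) against the Actb 5' minus 3' difference (x axis, log2) for the 16 arrays, labelled by condition, with STAT3-deficient in red, WT in blue, circles for replicate 1 and triangles for replicate 2. The replicates form separate clusters on the x axis, at -0.50 to -0.11 and at -1.71 to -0.88, and the array with the highest Actb difference has the lowest mean, 9.55.

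With IL-6 and TGFb together the genotypes differed in the same direction by less. Of the 97, 0 were called at a limma adjusted p under 0.05, beside 0.208% of all genes higher and 0.984% lower, and at an unadjusted p under 0.05, 3 were higher and 1 lower, beside 3.47% and 6.63% of all genes. The median change was 0.22 (0.27 without the doubted arrays, 0.14 with the block and the Actb difference), with 79 positive (78 without the doubted arrays), beside 0.01 over all genes, of which 51.9% were positive. Within replicate 2, which holds no doubted array, the median was 0.20 and 76 were positive. Both STAT3-deficient arrays lay above both WT arrays for 54 of the 97, beside 24.5% of all genes. Mrpl13 read 10.94 and 10.84 in STAT3-deficient cells, against 10.01 and 10.24 in WT cells, a change of 0.76 (SE 0.22) with a limma adjusted p of 0.191. Timm10 read 10.60 and 10.54 in STAT3-deficient cells, against 9.74 and 10.15 in WT cells.

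The comparisons under IL-6 and under IL-6 with TGFb use different arrays, but same-numbered arrays deviated together, so they are not independent. In both, 75 of the 97 (77.3%) were higher in STAT3-deficient cells, where 37.1% of all genes were, and 41 (42.3%) had non-overlapping groups with STAT3-deficient cells higher, where 9.7% of all genes did. Without the doubted arrays, which leaves 1 STAT3-deficient array with IL-6 and TGFb, these were 71 (73.2%, beside 35.4%) and 49 (50.5%, beside 13.2%). A gene that went the other way with IL-6 and TGFb was Mrps5, a small subunit protein named here after its values were seen. It read 9.52 and 9.43 in STAT3-deficient cells, against 10.30 and 10.41 in WT cells (change -0.88, SE 0.27, limma adjusted p 0.225). WT cells with IL-6 and TGFb had its highest group mean, and WT cells with IL-6 alone its lowest.

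Without added IL-6 the genotypes were close. Under TGFb alone 0 of the 97 were called and 0 passed an unadjusted p under 0.05 in either direction, beside 0% of all genes called by limma, and 0.3% higher and 0.384% lower at the unadjusted p. The median change was 0.01, and 0.00 without the doubted arrays, with 49 of 97 positive, as were 46.1% of all genes. In medium 0 were called and 0 passed an unadjusted p under 0.05, beside 0% of all genes called, and 0.0769% higher and 0.0538% lower at the unadjusted p. The median was 0.04 (-0.04 to 0.11 when each array was left out) with 62 positive, as were 50.4% of all genes. Stat3 itself, with changes of -2.52 under TGFb and -2.05 in medium, was not called in either comparison. Counts of 0 here therefore do not show that single genes were alike. Both Timm10 and Mrpl13 overlapped between the genotypes here. Mrpl13 read 10.72 and 10.83 in STAT3-deficient cells under TGFb, against 10.76 and 10.70 in WT cells. In medium it read 11.24 and 10.74 in STAT3-deficient cells, against 11.20 and 10.90 in WT cells. Timm10 read 10.42 and 9.46 in STAT3-deficient cells under TGFb, against 9.95 and 9.27 in WT cells. In medium it read 11.39 and 10.79 in STAT3-deficient cells, against 11.11 and 10.60 in WT cells. Within each replicate Timm10 was thus higher in STAT3-deficient cells in both conditions, with a doubted array under TGFb in replicate 1.

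Averaged over the 4 conditions, 0 of the 97 were called between the genotypes, beside 0.123% of all genes higher and 0.846% lower, while 28 were higher at an unadjusted p under 0.05, as were 5.04% of all genes. The median was 0.24, and 0.25 without the doubted arrays, where 19 passed the unadjusted p. It was 0.15 with the block and the Actb difference, and 0.16 without WT replicate 1 under IL-6. The count rose when some single arrays were left out, with no share of all genes to set beside it. Under the replicate block 5 were called higher, beside 0.723% of all genes, namely Mrpl13, Mrpl40, Mrpl42, Timm10 and Timm17a. Whether the genotype difference itself changed with IL-6 was tested as an interaction, the mean difference in the conditions with IL-6 minus that in the conditions without. Its median was 0.45 over the 97, with and without the doubted arrays, with 82 positive, beside 0.00 over all genes and 50.3% of them positive. By limma 0 were called, beside 0.0615% of all genes higher and 0.292% lower, and at an unadjusted p under 0.05, 20 were higher and 1 lower, beside 3.59% and 8.56% of all genes. Leaving out WT replicate 2 under IL-6 raised the count, again with no share of all genes to set beside it. Mrpl13 had an interaction of 1.08 (SE 0.22, limma adjusted p 0.0807) without the block and a limma adjusted p of 0.0380 with it.

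**Figure D3:**
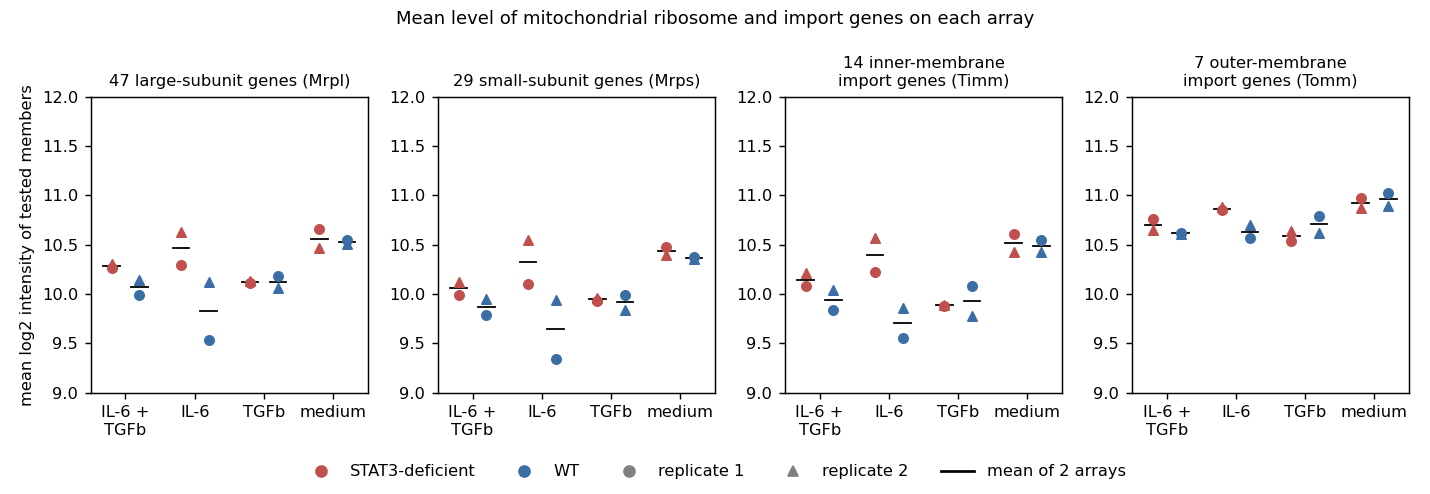
Mean log2 intensity of the tested Mrpl, Mrps, Timm and Tomm genes (y axis) on each array by condition (x axis), STAT3-deficient in red left of WT in blue, circles for replicate 1, triangles for replicate 2 and a line for the mean of 2 arrays. WT cells under IL-6 have the lowest group mean in the Mrpl, Mrps and Timm panels, and medium the highest in all 4.

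Against medium, IL-6 alone went with lower levels of these genes in WT cells. The mean of the 97 was 9.81 ± 0.37 in WT cells with IL-6 and 10.50 ± 0.04 in WT cells in medium (SD, n = 2 each). The median change was -0.72, with 87 of 97 negative, beside 0.00 over all genes and 50.3% of them negative. At a limma adjusted p under 0.05, 1 of the 97 was called lower and 0 higher, beside 0.0615% of all genes lower and 0.223% higher, while 53 were lower at an unadjusted p under 0.05, as were 6% of all genes. Both IL-6 arrays lay below both medium arrays for 68 of the 97, beside 19% of all genes.

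The called gene was Mrpl13, which read 9.36 and 9.85 with IL-6, against 11.20 and 10.90 in medium (change -1.45, SE 0.22, limma adjusted p 0.0214). Its 3 further probe sets had differences of -1.10, -1.18 and, for a dim one, -0.10. Timm10 read 8.83 and 9.25 with IL-6, against 11.11 and 10.60 in medium, a change of -1.81 (SE 0.36) with a limma adjusted p of 0.0677. Tomm7, a small subunit of the TOM complex, had 1 low array: it read 9.06 and 11.69 with IL-6, against 11.99 and 11.73 in medium. Mrpl52, a large subunit protein, read 9.23 and 11.75 with IL-6, against 11.87 and 11.49 in medium, with the same array low. Within replicate 1 the median difference was -0.93, and within replicate 2 it was -0.43. Without WT replicate 1 under IL-6 the median was -0.47 and the call was lost. Without WT replicate 2 under IL-6 the median was -0.96 and more were called, with no share of all genes to set beside them. The count was also 0 without either WT medium array or without both doubted arrays, and 2 without either STAT3-deficient array under TGFb. Under the block 6 fell (Mrpl12, Mrpl13, Mrpl40, Mrpl42, Timm10 and Timm17a), beside 0.469% of all genes.

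In STAT3-deficient cells the 97 genes had a mean of 10.44 ± 0.24 with IL-6 and 10.54 ± 0.11 in medium (SD, n = 2 each). The median change against medium was -0.08, the same as the median over all genes (-0.08). By limma 0 were called, beside 0% of all genes in either direction, and 1 was lower at an unadjusted p under 0.05, as were 0.953% of all genes. The replicates disagreed in sign: the median difference was -0.38 within replicate 1, with 92 of 97 negative, and 0.15 within replicate 2, with 74 of 97 positive. When each array was left out the median was -0.25 to 0.09. Timm10 read 10.97 and 11.16 with IL-6, against 11.39 and 10.79 in medium, and the groups overlapped. The comparison between genotypes under IL-6 and both comparisons of IL-6 with medium share arrays, so they are not separate evidence.

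Taking both conditions with IL-6 against both without, Mrpl13 fell in WT cells by 1.03 (SE 0.16, limma adjusted p 0.00920) and was the only one of the 97 called, beside 0.308% of all genes lower and 1.32% higher. The median was -0.40 in WT cells, and -0.25 without replicate 1 under IL-6. In STAT3-deficient cells the median was 0.04 (0.05 without the doubted arrays, and -0.03 to 0.13 when each array was left out), 0 were called, beside 0% of all genes, and 1 was lower at an unadjusted p under 0.05, as were 3.57% of all genes. In WT cells more were called lower without replicate 2 under IL-6, and the call was lost without replicate 1 in medium. No share of all genes is given for these runs. With the block, Mrpl42 was also called lower in WT cells (-0.80, limma adjusted p 0.0357).

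TGFb alone went with lower levels of these genes in both genotypes. The mean of the 97 was 10.07 ± 0.02 with TGFb and 10.54 ± 0.11 in medium in STAT3-deficient cells, and 10.08 ± 0.11 with TGFb and 10.50 ± 0.04 in medium in WT cells (SD, n = 2 each). In STAT3-deficient cells the median change was -0.48 (-0.41 without the doubted arrays) with 88 of 97 negative, beside -0.02 over all genes and 52.4% of them negative. In WT cells it was -0.42 (-0.46 to -0.34 when each array was left out) with 92 of 97 negative, beside 0.02 over all genes and 47.6% of them negative. These comparisons use different arrays, which are not independent either, because same-numbered arrays deviated together. In both genotypes 85 of the 97 (87.6%) were lower with TGFb, where 36.5% of all genes were, and 58 (59.8%) had non-overlapping groups with TGFb lower, where 12.2% of all genes did. Without the doubted arrays, which leaves 1 STAT3-deficient array under TGFb, these were 86 (88.7%, beside 38.9%) and 64 (66%, beside 17.4%). Within replicate 2, which holds no doubted array, 80 of 97 were lower in STAT3-deficient cells and 87 in WT cells. The STAT3-deficient array under TGFb used there had the highest Stat3 value of its genotype, 10.46.

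Single genes seldom passed. By limma 0 of the 97 were called in STAT3-deficient cells, beside 0.3% of all genes higher and 0.0538% lower, and 0 in WT cells, beside 0.2% higher and 0.0231% lower. At an unadjusted p under 0.05, 39 were lower in STAT3-deficient cells and 26 in WT cells, beside 6.66% and 5.43% of all genes, and 24 were lower in STAT3-deficient cells without the doubted arrays. Mrps18b, a small subunit protein, read 9.41 and 9.34 with TGFb, against 10.56 and 10.28 in medium, in STAT3-deficient cells, and 9.70 and 9.20 with TGFb, against 10.58 and 10.34 in medium, in WT cells. The changes were -1.04 (limma adjusted p 0.0958) and -1.01 (limma adjusted p 0.168), both without overlap. Under the block Timm17a was called in STAT3-deficient cells (-0.90, limma adjusted p 0.0485), beside 0.392% of all genes lower. Without STAT3-deficient replicate 2 under TGFb 2 were called lower there.

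When both conditions with TGFb were set against both without, 5 genes fell in STAT3-deficient cells and 0 rose, beside 0.646% of all genes lower and 2.32% higher. The median was -0.36. Mrpl38, a large subunit protein whose probe set is of the kind shared by several transcripts, fell by 0.71 (SE 0.15, limma adjusted p 0.0299), where its dimmer probe sets had differences of -0.43 and -0.01. Timm17a fell by 0.72 (SE 0.15, limma adjusted p 0.0300) and Mrps18b by 0.77 (SE 0.17, limma adjusted p 0.0347). Mrps22, a small subunit protein, fell by 0.65 (SE 0.15, limma adjusted p 0.0446), and Timm9, the partner of Timm10, by 0.82 (SE 0.19, limma adjusted p 0.0461), with overlapping arrays for Timm9.

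On each array with TGFb, Timm17a in STAT3-deficient cells read 10.87 and 10.97 (with IL-6) and 10.47 and 10.70 (TGFb alone), against 11.32 and 11.60 (IL-6 alone) and 11.46 and 11.49 (medium). All 4 arrays with TGFb lay below all 4 without. Without the doubted arrays 0 were called and the median was -0.31. The count was also 0 without only the doubted array with IL-6 and TGFb, without replicate 1 in medium or without replicate 2 under IL-6. It was 1 without replicate 2 with IL-6 and TGFb or in medium, 2 without the doubted array under TGFb or either WT array with IL-6 and TGFb, and 3 without either WT array under TGFb or in medium. With the block and the Actb difference as a covariate Timm17a was called (limma adjusted p 0.0402), and Mrpl38 (0.0587), Mrps18b (0.0541), Mrps22 (0.0882) and Timm9 (0.0752) were not. Under the block 13 fell, beside 1.79% of all genes, among them Tomm40, the channel of the TOM complex (-0.62, limma adjusted p 0.0466). In WT cells the median was -0.09, 0 were called, beside 1.19% of all genes higher and 0.523% lower, and 1 was higher and 10 lower at an unadjusted p under 0.05, beside 6.13% and 6.31% of all genes. Without WT replicate 2 under IL-6 some were called higher there, with no share of all genes to set beside them, and the median was 0.00. Without WT replicate 1 under IL-6 the median was -0.24, and without replicate 1 or 2 of the WT arrays under TGFb it was -0.15 or -0.05. Whether TGFb acted differently in the genotypes was not tested.

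IL-6 with TGFb against medium gave medians of -0.33 in STAT3-deficient cells (-0.29 without the doubted arrays) and -0.47 in WT cells, beside -0.05 and -0.04 over all genes. Of the 97, 90 were negative in STAT3-deficient cells and 91 in WT cells, beside 57.3% and 54.8% of all genes. In STAT3-deficient cells 0 were called by limma, beside 0.131% of all genes higher and 0.00769% lower, and 8 were lower at an unadjusted p under 0.05, as were 2.98% of all genes, and 2 were without the doubted arrays. In WT cells 1 was called lower, beside 0.853% of all genes lower and 2.14% higher, and 31 were lower at an unadjusted p under 0.05, as were 7.94% of all genes.

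This was Mrpl42, at 10.31 and 10.63 with IL-6 and TGFb, against 11.72 and 11.41 in medium (change -1.10, SE 0.25, limma adjusted p 0.0415). Without the doubted arrays, which share only the estimate of the spread with this comparison, 0 were called. Leaving out any 1 of the WT arrays with IL-6 and TGFb, the WT medium arrays or the STAT3-deficient arrays with IL-6 and TGFb also gave 0, and leaving out either WT array under IL-6 gave 4. A further probe set of Mrpl42 with a mean of only 3.66 had a difference of 0.12. With the block and the Actb difference as a covariate Mrpl42 was not called (limma adjusted p 0.0583). Blocked by replicate number, 11 fell, beside 2.09% of all genes, with Mrps28 the largest at -1.35 (limma adjusted p 0.0341).

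**Figure D4:**
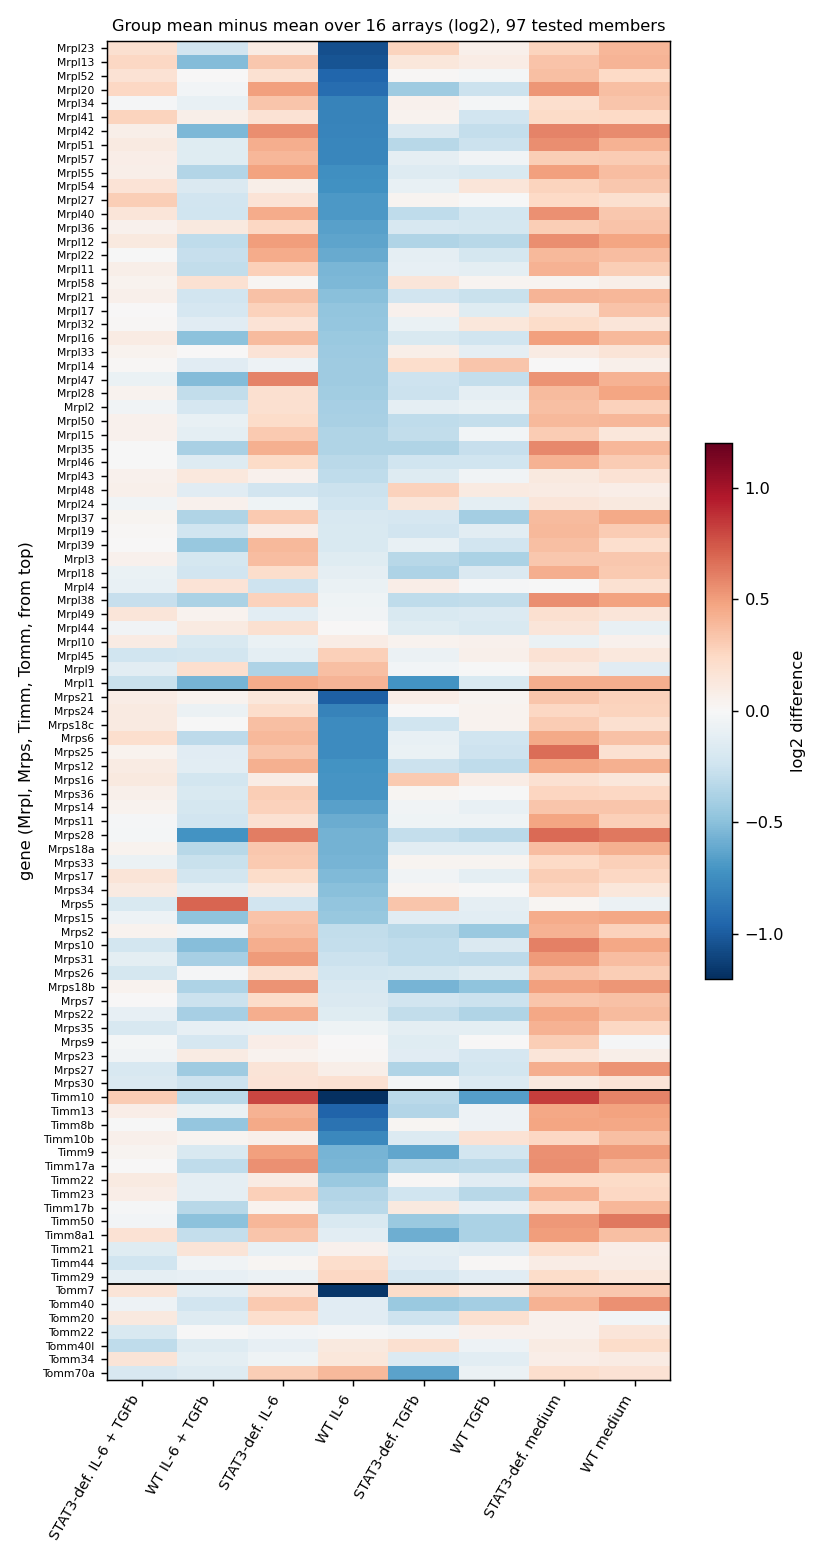
Mean of each group minus the mean over 16 arrays (colour, log2 difference) for the 97 tested genes (rows, by class and then by their value in WT cells with IL-6) in the 8 groups (columns, STAT3-deficient left of WT in each condition). The WT column with IL-6 is the lowest for 55 of 97 genes and the STAT3-deficient medium column the highest for 42.

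Seen over all 8 groups, the pattern was shared by most genes but not by all. The highest group mean was that of medium for 42 of the 97 in STAT3-deficient cells and 24 in WT cells, where 12.5% and 11.1% of all genes had it. The lowest was WT cells with IL-6 for 55 (56.7%), beside 17.1% of all genes. It was WT cells with IL-6 and TGFb for 18 (18.6%, beside 18.2%) and STAT3-deficient cells with TGFb for 11 (11.3%, beside 11.3%). These last shares were close to those of all genes. Without the doubted arrays the counts were 53 (54.6%, beside 14.3%), 18 (18.6%, beside 17.4%) and 15 (15.5%, beside 19.7%). The gap between the highest and the lowest group mean ran from 0.29 for Mrpl10, a stalk protein, to 2.05 for Timm10 (without the doubted arrays, from 0.26 for Timm44).

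Within each class some genes barely moved. Mrps23 kept its 8 group means within 0.35, Timm21, a TIM23 subunit, within 0.34, and Tomm34, a mostly cytosolic helper of import, within 0.31. The widest gaps after Timm10 were those of Tomm7 (1.49), Mrpl13 (1.45), Mrpl23 (1.45), Timm13 (1.44), Mrpl20 (1.44), Mrps25 (1.42) and Mrps28 (1.39). For Mrpl23 and Tomm7 this gap came from WT replicate 1 under IL-6: Mrpl23 read 10.38 and 10.88 in STAT3-deficient cells with IL-6, against 8.51 and 10.45 in WT cells.

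The receptors of the TOM complex did not share 1 pattern. Tomm70a, the receptor for carrier precursors, had its highest group mean in WT cells with IL-6 (10.65 ± 0.23) and its lowest in STAT3-deficient cells with TGFb (9.62 ± 0.96, SD, n = 2 each), this last mean resting on 1 doubted array at 8.95 beside 10.30. Tomm20, the receptor for presequences, read 13.32 and 13.27 in STAT3-deficient cells with IL-6, against 12.80 and 13.12 in WT cells, without overlap but with a limma adjusted p of 0.411. Tomm22, the central receptor, had group means between 10.85 (STAT3-deficient with IL-6 and TGFb) and 11.18 (WT in medium). Tomm40l, a relative of the TOM channel, had group means between 8.63 and 9.16.

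Brightness differs between probe sets, so the levels do not order the genes. Among those at the bright or dim end of their class, Timm23, the TIM23 channel, had group means between 11.73 (WT with IL-6) and 12.50 (STAT3-deficient in medium), Mrps14 between 10.89 and 11.88, Mrps16 between 10.60 and 11.63, and Mrpl39 between 10.70 and 11.54. At the dim end, Mrps27, a small subunit protein, had group means between 7.82 and 8.79, and Timm9 between 6.33 (STAT3-deficient with TGFb) and 7.50 (STAT3-deficient in medium).

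Other genes around mitochondrial translation and import, taken as lists, were mostly not called. Between the genotypes 0 of 26 other import and processing genes, 13 translation factors, 19 ribosome assembly genes, 12 genes of mitochondrial DNA and transcription, 12 regulators of mitochondrial biogenesis and 4 ribosome proteins with other names were called by limma in any of the 4 conditions. Under IL-6 the median genotype change was 0.34 for the import and processing genes (20 of 26 positive), and 6 of them were higher and 1 lower at an unadjusted p under 0.05, beside 7.42% and 14.3% of all genes. It was -0.19 for the translation factors, 0.03 for the assembly genes, -0.05 for the genes of mitochondrial DNA and transcription, 0.11 for the regulators and 0.26 for the ribosome proteins with other names. With TGFb against medium in STAT3-deficient cells the medians were -0.44 for import and processing, -0.44 for assembly, -0.30 for translation factors, -0.36 for mitochondrial DNA and transcription, -0.15 for the regulators and -0.18 for the ribosome proteins with other names. In the same order they were, without the doubted arrays, -0.32, -0.36, -0.18, -0.29, -0.09 and 0.00.

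The only list gene called in any of the 16 comparisons was Dnajc15, a J-domain protein of the inner membrane. It fell in WT cells with IL-6 and TGFb against medium by 1.94 (SE 0.42, limma adjusted p 0.0316), and in the conditions with TGFb against those without by 1.37 (SE 0.30, limma adjusted p 0.0431).

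The 97 were set beside 79 respiratory chain genes and a cytosolic ribosomal protein set of 49 genes, both taken by symbol. The symbol pattern for ribosomal proteins also admits other symbols, such as those of S6 kinases. That set may therefore hold genes of other proteins. The median change of the 97 was about as large as that of the respiratory chain under IL-6 and larger under TGFb. The median genotype change under IL-6 was 0.66 for the 97, 0.67 for the respiratory chain, where 3 were called higher, and 0.33 for the cytosolic ribosomal proteins, where 0 were called and 7 were higher at an unadjusted p under 0.05. Of all genes, 0.561% were called higher there and 7.42% were higher at the unadjusted p. Without the doubted arrays the calls of the respiratory chain did not hold, though the medians stayed at 0.66, 0.67 and 0.33. With TGFb against medium the medians were -0.48 for the 97, -0.16 for the respiratory chain and 0.00 for the cytosolic ribosomal proteins in STAT3-deficient cells, and -0.42, -0.06 and 0.03 in WT cells. Those of STAT3-deficient cells were, without the doubted arrays, -0.41, -0.11 and 0.03. These are descriptions, and the differences between the sets were not tested.

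**Figure D5:**
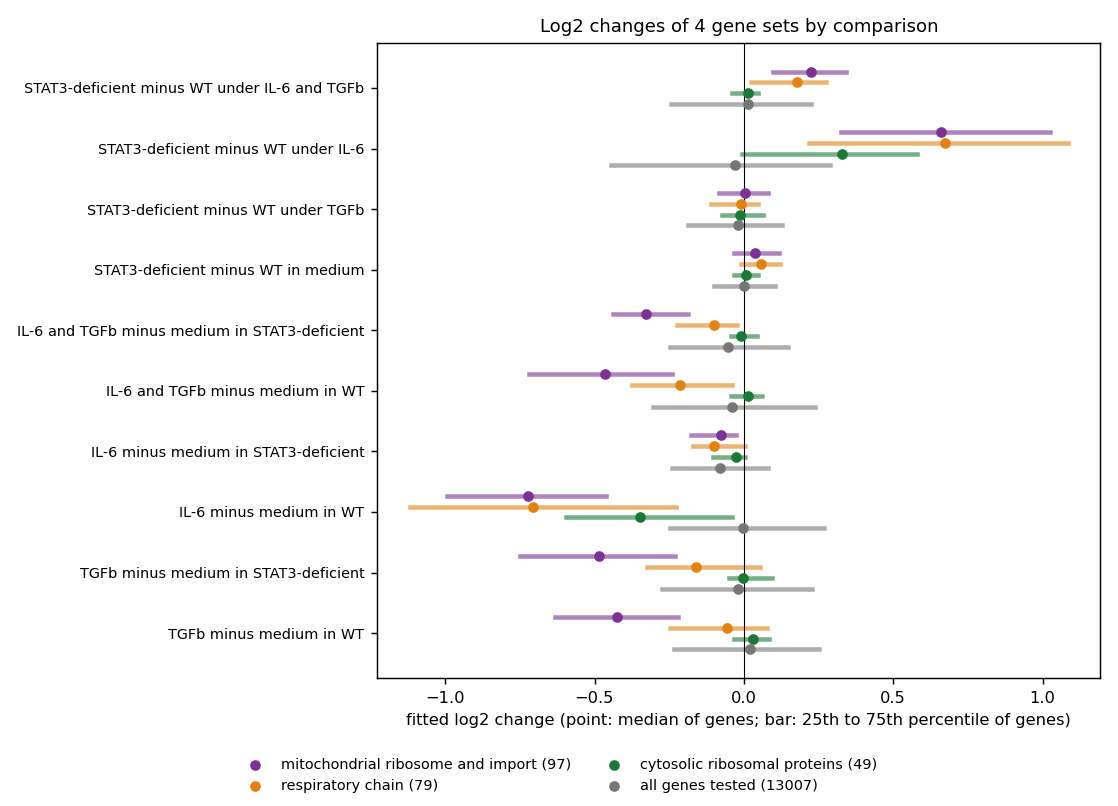
Fitted log2 changes (x axis) in 10 comparisons (y axis), with a point at the median of genes and a bar over the 25th to 75th percentile. Shown are the 97 genes, 79 respiratory chain genes, the 49 genes of the cytosolic ribosomal protein set taken by symbol, and all 13007 genes tested. Under IL-6 the medians of the 97 genes and the respiratory chain lie together, at 0.66 and 0.67, and with TGFb against medium they lie apart, at -0.48 and -0.16 in STAT3-deficient cells.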

How the data were processed

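Total RNA of 16 cultures was biotin-labelled and hybridised to Affymetrix arrays, 1 array a sample, per the labels' protocols. Per the submitters' processing notes the authors used RMA, whose version is not given in the sources used here. What they deposited was intensity on a linear scale, in whole numbers between 6 and 37243, and its log2 was taken with no pseudocount. Array medians of 66 to 73 are those after normalization. Of 45101 probe sets, 64 were controls, 34945 had 1 gene symbol, 932 had several and 9160 had none in the platform annotation. Entrez numbers of all 99 member genes were found in RefSeq annotation of GRCm38.p6, with 0 symbols changed. Genes under log2 6 on all or all but 1 of the arrays, 5186 of them, were not tested. Precision is limited by how few arrays each group has.

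One limma fit (version 3.58.1, R 4.3.3) covered the 16 arrays with 8 group means, leaving 8 residual degrees of freedom beside a prior of 3.27 with SD 0.27, so groups of 2 share 1 estimate of the spread. Each of 16 comparisons was tested two-sided with Benjamini-Hochberg adjustment over 13007 genes and called at an adjusted p under 0.05. The fit was tested on simulated data. The replicate number came from the titles, and the correlations of same-numbered arrays show that it pairs them. Alternatives were the replicate block, the block with the Actb difference, no level filter, quantile normalization, the mean of a gene's probe sets, both doubted arrays left out and each array left out. The member genes, the comparison lists and the tests were chosen with earlier results of these data known. Genes named are Stat3, up to 6 called members each way per comparison, the members at the ends of each class by level and range, called members with a probe set of opposite sign and called genes of the lists. Mrpl9, Mrpl11, Mrpl20, Mrpl40, Mrps5, Timm44, Tomm22 and the members named from the blocked fit were named after their values were seen. Figures used matplotlib 3.10.9 under Python 3.11.15, with pandas 2.3.3, and tables were written in R with version 1.17.8 of data.table.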

Additional observations from a re-analysis of the deposited data

Results flagged for a closer look

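Among the genes called in at least 1 comparison, which alone were examined for this, 3 had a genotype difference of opposite sign in 2 conditions in both replicates. The STAT3-deficient minus WT difference of Timm13 was 0.16 with IL-6 and TGFb and 1.38 with IL-6 alone, and it was -0.29 with TGFb alone. That of Timm9 was 1.05 with IL-6 alone and -0.41 with TGFb alone. That of Mrps18b was 0.41 with IL-6 and TGFb and 0.72 with IL-6 alone, and it was -0.04 in medium. These differences between conditions were not tested, and those with TGFb rest on doubted arrays.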

How the results depend on the processing

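No called gene changed direction under any alternative run, while medians near 0 took both signs, such as -0.25 to 0.09 for IL-6 against medium in STAT3-deficient cells when each array was left out. The medians of all 16 comparisons moved by less than the spread between replicates with the replicate block, the block with the Actb difference, no level filter, quantile normalization and the doubted arrays left out. Counts of called members did move. With the replicate block they were 28 for the genotypes under IL-6, 5 for the genotypes over the 4 conditions, 11 for IL-6 with TGFb and 6 for IL-6 against medium in WT cells, 1 for TGFb against medium in STAT3-deficient cells, 2 for IL-6 present in WT cells, 1 for the interaction and 13 for TGFb present in STAT3-deficient cells. The shares of all genes called with the block stand above, except 0.823% lower for IL-6 present in WT cells and 0.146% higher for the interaction. The block changed no other count of calls. With the replicate block and the Actb difference they were 2 for the genotypes under IL-6, 2 for IL-6 with TGFb in WT cells (without Mrpl42), 1 for TGFb present in WT cells and 3 for TGFb present in STAT3-deficient cells (Timm17a of the 5 among them). Quantile normalization gave 16 for the genotypes under IL-6 (8 of the 9 among them), beside 0.938% of all genes higher, where the main fit had 0.561%. It gave 3 for IL-6 with TGFb in WT cells and 2 for IL-6 present in WT cells. The mean of a gene's probe sets gave 0 for IL-6 against medium in WT cells, with a median of -0.52, 0 for IL-6 present in WT cells and 3 for TGFb present in STAT3-deficient cells. Without the doubted arrays 7 of the 9 were called under IL-6, and 0 for IL-6 with TGFb and for IL-6 in WT cells and for TGFb present in STAT3-deficient cells. Where no share of all genes is given for a run, its count does not show a change particular to these genes. The causes were not tested.

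Leaving out each array in turn, with the lone array of a group assumed to vary like the others, gave these ranges. Between genotypes under IL-6, 0 to 33 were called and the median was 0.37 to 0.92. Over the 4 conditions 0 to 12 were called, without WT replicate 2 under IL-6 giving the 12. For IL-6 with TGFb against medium in WT cells 0 to 4 were called. For IL-6 against medium in WT cells 0 to 31 were called and the median was -0.96 to -0.47. For TGFb against medium in STAT3-deficient cells 0 to 2 were called. For IL-6 present, 0 to 27 were called in WT cells. For the interaction 0 to 7 were called. For TGFb present 0 to 7 were called in WT cells, all higher, and 0 to 6 in STAT3-deficient cells. With 2 arrays a group, 1 array decides most calls. For runs with an array left out, the share of all genes called is given above only for the genotypes under IL-6. The other counts therefore do not show a change particular to these genes.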
